A study of Mus musculus with 8 samples.

Results

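The genes described here are 9 genes of endocannabinoid signalling, found by symbol among the 23420 gene rows of each count table: Mgll, Abhd6, Abhd12, Dagla, Daglb, Napepld, Faah, Cnr1 and Cnr2. The list was drawn around Mgll, which earlier work on these same libraries had singled out because it had the smallest p-value among genes higher in Erbb3d/d. The other 8 genes were listed for their function. For these reasons the genotype comparison of the 9 genes is given as a description, with fold changes and standard errors but with no p-value. All 9 genes passed the filter on low counts.

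RNA was sequenced from mouse uterine stromal cells, the connective tissue cells of the uterus, in 4 libraries from Erbb3f/f females and 4 from Erbb3d/d females, all labelled day 3. The study concerns stromal Erbb3 and the shaping of uterine glands. Erbb3 encodes a receptor of the ERBB family. By mouse convention an f allele carries loxP sites and a d allele has been recombined by Cre, but the labels name no Cre line, no age and no event from which the day is counted. They also do not say whether each library came from a separate female, so the p-values given here measure the spread between these libraries, which may in part be technical.

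Endocannabinoids are lipid messengers made on demand from membrane lipids. 2-arachidonoylglycerol (2-AG) is made from diacylglycerol by the lipases Dagla and Daglb and broken down by the serine hydrolases Mgll, Abhd6 and Abhd12. Anandamide is released from N-acylphosphatidylethanolamine by the phospholipase Napepld, among other routes, and broken down by the amide hydrolase Faah. Both lipids act on the G protein-coupled receptors Cnr1 (CB1) and Cnr2 (CB2). In the mouse uterus the anandamide level is known to be tightly regulated around implantation. Mgll also carries out the last step in the breakdown of stored triglyceride, the release of glycerol from monoglyceride.

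Between 8578575 and 12854367 reads per library were assigned to genes. The stromal markers were abundant in every library: their summed normalised read count (CPM, reads of a gene scaled to a common library size) was 13108 to 16549 in Erbb3f/f and 11247 to 15487 in Erbb3d/d, led by Col3a1 and Col1a1. Of the 12 stromal markers, 8 had a log2 fold change below 0, Erbb3d/d over Erbb3f/f. The median was -0.24 against -0.01 over all genes tested. Pdgfra and Vim are named because their genotypes did not overlap, where 5.04% of all genes tested did not. Their means were 916 and 622 CPM in Erbb3f/f and 622 and 448 CPM in Erbb3d/d (adjusted p = 0.206 and 0.279 in edgeR's quasi-likelihood test). Transcripts of other cells were also present. Epithelial markers summed to 991 to 1632 CPM in Erbb3f/f and 1527 to 2518 CPM in Erbb3d/d, and smooth muscle markers to 2265 to 3548 CPM and 3407 to 6850 CPM. Of the 12 smooth muscle markers, 11 had a log2 fold change above 0, with Synpo2 (-0.28) as the exception. Their median was 0.999, against 0.62 for the 15 epithelial markers. In each of these 2 lists 3 genes did not overlap between the genotypes. The smallest adjusted p was 0.217 and 0.281 in edgeR's quasi-likelihood test, smooth muscle first. Endothelial markers summed to 427 to 747 CPM and 449 to 827 CPM, immune markers to 1011 to 2503 CPM and 1385 to 1774 CPM, mesothelial markers to 316 to 525 CPM and 293 to 458 CPM, and nerve and Schwann cell markers to 58.3 to 86.0 CPM and 53.7 to 95.9 CPM, in the same order of genotypes. Adipocyte markers were near 0, with a sum of 0.524 to 2.75 CPM in Erbb3f/f and 0.350 to 3.31 CPM in Erbb3d/d. In bulk libraries, fewer cells of a type and less RNA per cell cannot be told apart. Erbb3 itself had 7.40 to 12.3 CPM in Erbb3f/f and 7.37 to 17.7 CPM in Erbb3d/d (log2 fold change 0.53, SE 0.28, adjusted p = 0.485 in edgeR's quasi-likelihood test). Whole-gene counts cannot tell a removed exon from the remaining ones, so directions here follow the labels only.

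Among the 14598 genes tested, 0 (percent called 0%) passed an adjusted p of 0.05 in edgeR (quasi-likelihood test), 1695 (11.6%) had an unadjusted p under 0.05, and DESeq2 called 262 (1.79%). Without Erbb3d/d replicate 2, edgeR called 259 genes. The 4 values of one genotype lay wholly above the 4 of the other in 736 genes (5.04%), of which 374 (2.56%) were higher in Erbb3d/d. Among the 9 endocannabinoid genes, 1 did so, Mgll, and it was higher in Erbb3d/d. Because Mgll was chosen from this contrast, nothing is read from that count. The log2 fold change, Erbb3d/d over Erbb3f/f, was above 0 for 8 of the 9 genes, with Daglb as the exception, where 48% of all genes tested were above 0. Its median was 0.24 over the 9 genes and 0.22 without Mgll, against -0.01 over all genes tested. The 8 genes include Mgll, so nothing is read from that count either. The values of Dagla (0.06, SE 0.17), Abhd12 (0.07, SE 0.13) and Cnr2 (0.21, SE 0.33) were smaller than their SE. Those of Faah, Napepld, Dagla and Cnr2 changed sign under some of the other settings given below.

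**Figure D1:**
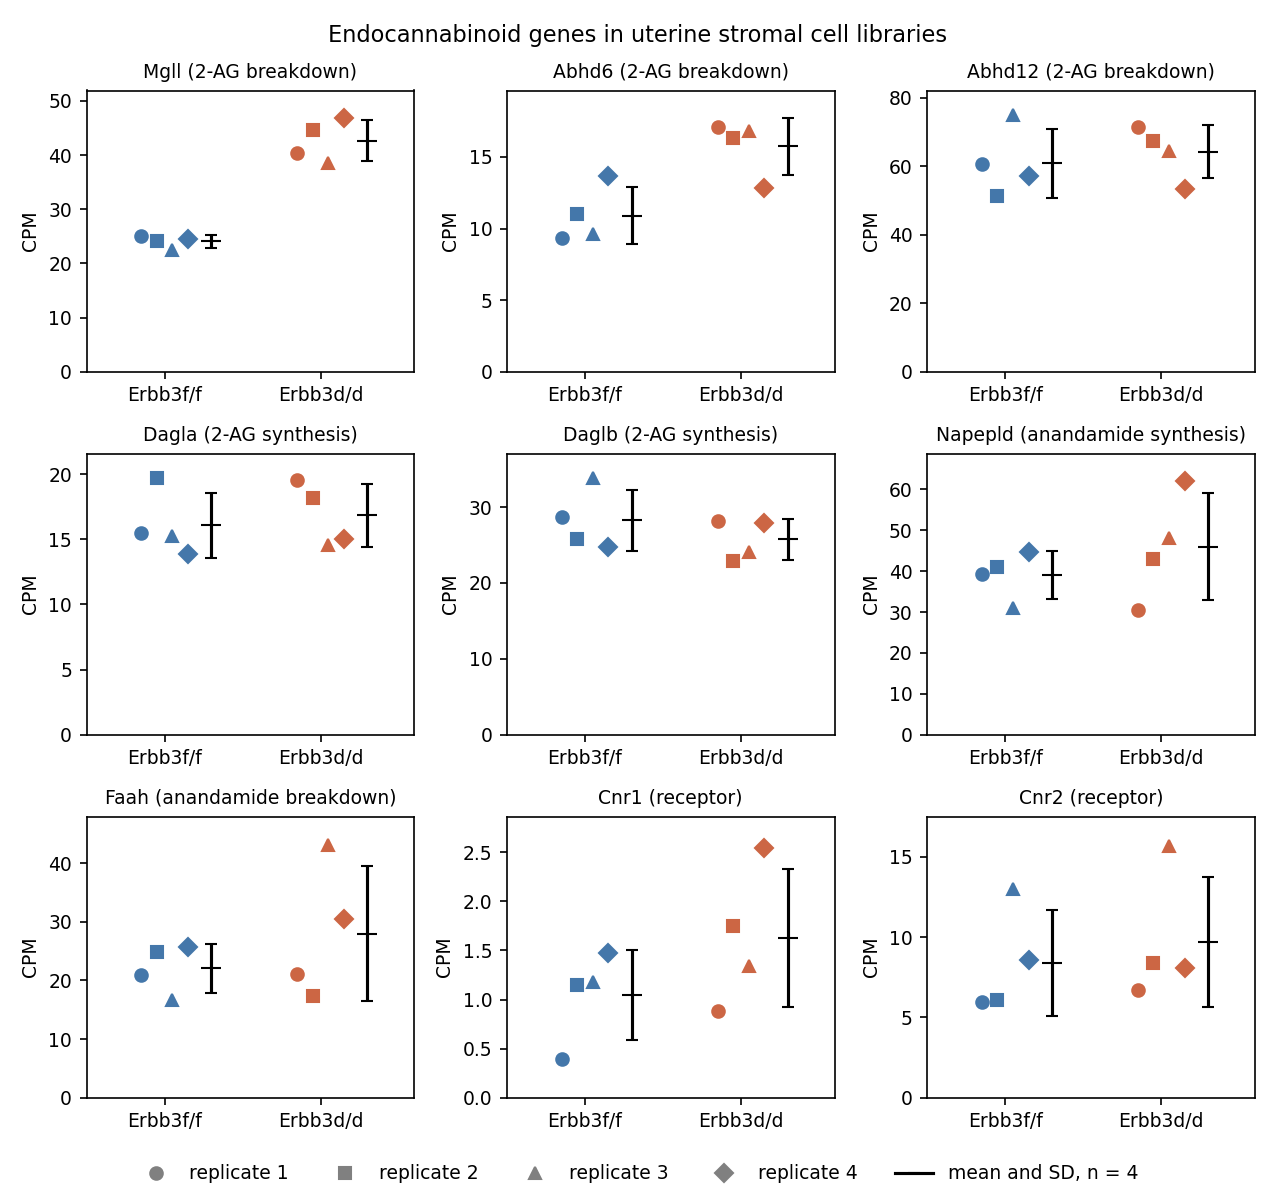
Normalised read count (CPM, vertical axis from 0) of each of the 9 genes in the 4 Erbb3f/f (blue) and 4 Erbb3d/d (orange) libraries, with the marker shape giving the replicate and the black bar the mean and SD of 4. The genotypes are apart for Mgll, with 22.4 to 25.03 CPM against 38.6 to 46.8 CPM, and overlap for the other 8 genes.

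Where 4 values are given for a genotype, they follow replicates 1 to 4. Mgll and Abhd6 had the largest log2 fold changes of the list among genes with more than 30 reads in every library. Abhd12, the other breakdown enzyme of 2-AG, had 0.07. Cnr1, with 4 to 29 reads, had 0.64 against 0.53 for Abhd6. This ranking uses the contrast from which Mgll was chosen and is a description. Mgll, the gene of monoglyceride lipase, spans 88724412 to 88828360 on chromosome 6, plus strand, with 11 merged exons (GRCm38, GENCODE vM21). It had 25.03, 24.2, 22.4 and 24.5 CPM in Erbb3f/f and 40.4, 44.7, 38.6 and 46.8 CPM in Erbb3d/d, from 217 to 534 reads. Every Erbb3d/d library was above every Erbb3f/f library, and the lowest Erbb3d/d value was 38.6 CPM against a highest Erbb3f/f value of 25.03 CPM. The mean was 24.0 ± 1.15 CPM in the Erbb3f/f libraries and 42.6 ± 3.79 CPM in the Erbb3d/d libraries (SD, n = 4 each), a ratio of 1.77 and a fitted log2 fold change of 0.83 (SE 0.11).

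Mgll stood out for both a wide difference and a narrow spread. Of the 11041 tested genes with a mean of at least 10 CPM, 2.49% had a larger fold change in either direction and 10.6% had a smaller spread within the genotypes. The SD of log2(CPM + 0.5) within a genotype was 0.102 for Mgll and 0.188 for the median of those genes. These values describe how Mgll came to be chosen. Over 16 other settings, among them each library left out in turn and a marker mean as a covariate, its log2 fold change lay between 0.76 and 0.88. The SE was 0.15 with the epithelial mean and 0.16 with the smooth muscle mean as a covariate. All settings use the libraries from which Mgll was chosen, so that range is a description too. An antisense transcript, Gm26588, which has no row in the tables, shares 167 bp of exon with Mgll, and the libraries were non-directional, so reads there cannot be assigned to a strand.

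Abhd6, the gene of a membrane-bound hydrolase of 2-AG, spans 8002902 to 8056763 on chromosome 14. It had 9.35, 11.0, 9.58 and 13.7 CPM in Erbb3f/f and 17.1, 16.3, 16.8 and 12.8 CPM in Erbb3d/d, from 96 to 213 reads. Erbb3d/d replicates 1 to 3 were above all Erbb3f/f libraries, while Erbb3d/d replicate 4 lay below Erbb3f/f replicate 4, so the genotypes overlapped by that pair. The mean was 10.9 ± 1.99 CPM in the Erbb3f/f libraries and 15.8 ± 1.99 CPM in the Erbb3d/d libraries (SD, n = 4 each), with a log2 fold change of 0.53 (SE 0.18). Over the same 16 settings it lay between 0.47 and 0.66. Without Erbb3f/f replicate 4, or without Erbb3d/d replicate 4, Abhd6 did not overlap between the genotypes, where 9.25% and 6.42% of the genes tested did not.

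Abhd12, a hydrolase known also for its action on lysophosphatidylserine, spans 150832493 to 150904741 of chromosome 2. It had 60.6, 51.2, 74.9 and 57.1 CPM in Erbb3f/f and 71.5, 67.5, 64.5 and 53.4 CPM in Erbb3d/d. The 2 ranges were nearly the same, and the log2 fold change of 0.07 (SE 0.13) was smaller than its error. Fitted with the epithelial marker mean as a covariate it was 0.34.

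The sequence before the start of Mgll and of Abhd6 is shown because these are the members with the largest difference among those of more than 30 reads. The letters are the 250 bases upstream of the first RefSeq start of each gene (RefSeq, GRCm38.p6), 5′ to 3′ on the plus strand, at chr6:88724162-88724411 for Mgll and chr14:8002638-8002887 for Abhd6. Capitals mark an E-box, CACGTG, which reads the same on both strands.
Mgll: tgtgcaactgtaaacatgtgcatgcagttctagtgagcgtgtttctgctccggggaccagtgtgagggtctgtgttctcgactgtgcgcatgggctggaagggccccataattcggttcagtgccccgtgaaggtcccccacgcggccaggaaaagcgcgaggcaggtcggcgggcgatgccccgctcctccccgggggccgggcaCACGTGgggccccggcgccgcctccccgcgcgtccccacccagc
Abhd6: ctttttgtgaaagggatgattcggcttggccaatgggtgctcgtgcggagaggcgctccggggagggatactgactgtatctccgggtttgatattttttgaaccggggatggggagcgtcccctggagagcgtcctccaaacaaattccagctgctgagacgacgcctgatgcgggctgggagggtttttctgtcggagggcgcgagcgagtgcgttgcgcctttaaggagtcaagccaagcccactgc
The Mgll window held 1 E-box and the Abhd6 window 0, and 6.02% of the 32851 windows of the same length before RefSeq starts held one. A GC box, GGGCGG on either strand, was in neither window and in 32.7% of all windows. A second RefSeq start of each gene gives another window, at chr6:88724454-88724703 for Mgll and chr14:8002716-8002965 for Abhd6, and each of these held 1 GC box and 0 E-boxes. GC made up 68.0% of the Mgll window and 58.4% of the Abhd6 window, against a median of 52.4%. The motifs were chosen after the sequences were seen, and a match is a description of letters only.

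Set side by side per kilobase of exon, Abhd12 was the most abundant of the 2-AG hydrolases in all 8 libraries. Mgll took 16.2%, 17.3%, 12.6% and 15.7% of the summed CPM per kilobase of Mgll, Abhd6 and Abhd12 in Erbb3f/f, and 19.6%, 22.2%, 20.2% and 27.5% in Erbb3d/d. The share of Abhd12 was 65.6% to 75.8% in Erbb3f/f and 56.4% to 62.5% in Erbb3d/d. Abhd6 had 11.6% to 18.8% and 16.1% to 18.9%. These shares rest on the same Mgll counts as the difference above and add no independent measurement.

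The 2-AG synthases differed little between the genotypes. Dagla, on chromosome 19 at 10245265 to 10304877, had 15.5, 19.7, 15.2 and 13.9 CPM in Erbb3f/f and 19.6, 18.2, 14.6 and 15.002 CPM in Erbb3d/d. The libraries of both genotypes were intermingled, with a log2 fold change of 0.06 (SE 0.17). It was -0.15 with the smooth muscle mean as a covariate, 0.26 with the epithelial mean and -0.02 without Erbb3d/d replicate 1.

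Daglb, on chromosome 5 at 143464584 to 143505942, had 28.7, 25.8, 33.8 and 24.8 CPM in Erbb3f/f and 28.2, 22.9, 24.1 and 27.9 CPM in Erbb3d/d. It was the 1 gene of the 9 with a log2 fold change below 0, at -0.13 (SE 0.14), and the genotypes overlapped. Without Erbb3f/f replicate 3, the highest library, the log2 fold change was -0.04, and with the epithelial mean as a covariate it was -0.0047. Daglb shares 2309 bp of its 9567 bp of merged exon with Rac1 on the other strand, which had a mean of 418 CPM in each genotype. Reads of the shared stretch cannot be assigned to a strand in these libraries, so the level of Daglb is uncertain.

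The anandamide enzymes varied more within Erbb3d/d than any 2-AG enzyme did, with a coefficient of variation of 41.0% for Faah and 28.5% for Napepld against 8.90% to 14.4%. Faah, the main amide hydrolase of anandamide, lies on chromosome 4 at 115967145 to 116017926. It had 20.9, 24.9, 16.7 and 25.8 CPM in Erbb3f/f and 21.0, 17.4, 43.1 and 30.4 CPM in Erbb3d/d. Erbb3d/d replicates 3 and 4 were above every Erbb3f/f library, and Erbb3d/d replicates 1 and 2 lay within the Erbb3f/f range. The mean was 22.1 ± 4.15 CPM in the Erbb3f/f libraries and 28.0 ± 11.5 CPM in the Erbb3d/d libraries (SD, n = 4 each), with a log2 fold change of 0.35 (SE 0.27), or 0.07 without Erbb3d/d replicate 3.

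Napepld, the phospholipase that releases anandamide, lies on chromosome 5 at 21662901 to 21701396. It had 39.3, 41.1, 31.1 and 44.8 CPM in Erbb3f/f and 30.5, 43.0, 48.1 and 62.1 CPM in Erbb3d/d. As with Faah, Erbb3d/d replicates 3 and 4 were the only libraries above the Erbb3f/f range. The lowest value of all 8 was in Erbb3d/d replicate 1. The mean was 39.0 ± 5.77 CPM in the Erbb3f/f libraries and 45.9 ± 13.1 CPM in the Erbb3d/d libraries (SD, n = 4 each), with a log2 fold change of 0.24 (SE 0.20), or 0.06 without Erbb3d/d replicate 4.

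As a list mean, the epithelial markers were highest in the same libraries. Their mean log2(CPM + 0.5) was 6.72 and 6.79 in Erbb3d/d replicates 3 and 4, 6.07 and 6.16 in Erbb3d/d replicates 1 and 2, and 6.04, 5.90, 5.44 and 6.15 in Erbb3f/f replicates 1 to 4. All 15 epithelial markers were among the genes tested, 13 of them had a log2 fold change above 0, and the most abundant were Cldn3 and Cdh1. The 2 markers below 0 were Cldn3 (-0.22) and Foxa2 (-0.52). Both had their lowest value of all libraries in Erbb3d/d replicate 3, at 191 CPM and 2.84 CPM. Fitted with the epithelial mean beside the genotype, the log2 fold change came to -0.33 (SE 0.25) for Faah and -0.27 (SE 0.18) for Napepld, the opposite sign. With Erbb3d/d replicates 3 and 4 left out, a choice made after seeing the data, it was -0.19 for Faah and -0.08 for Napepld. Under the same settings it was 0.76 and 0.83 for Mgll, and 0.53 and 0.62 for Abhd6. Mgll in Erbb3d/d replicates 1 and 2, at 40.4 and 44.7 CPM, lay between replicates 3 and 4. Mgll was chosen from this contrast, so its values under these settings are a description. The covariate was itself higher in Erbb3d/d on the whole, and the part of epithelial RNA in the levels of these 4 genes was not tested.

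**Figure D2:**
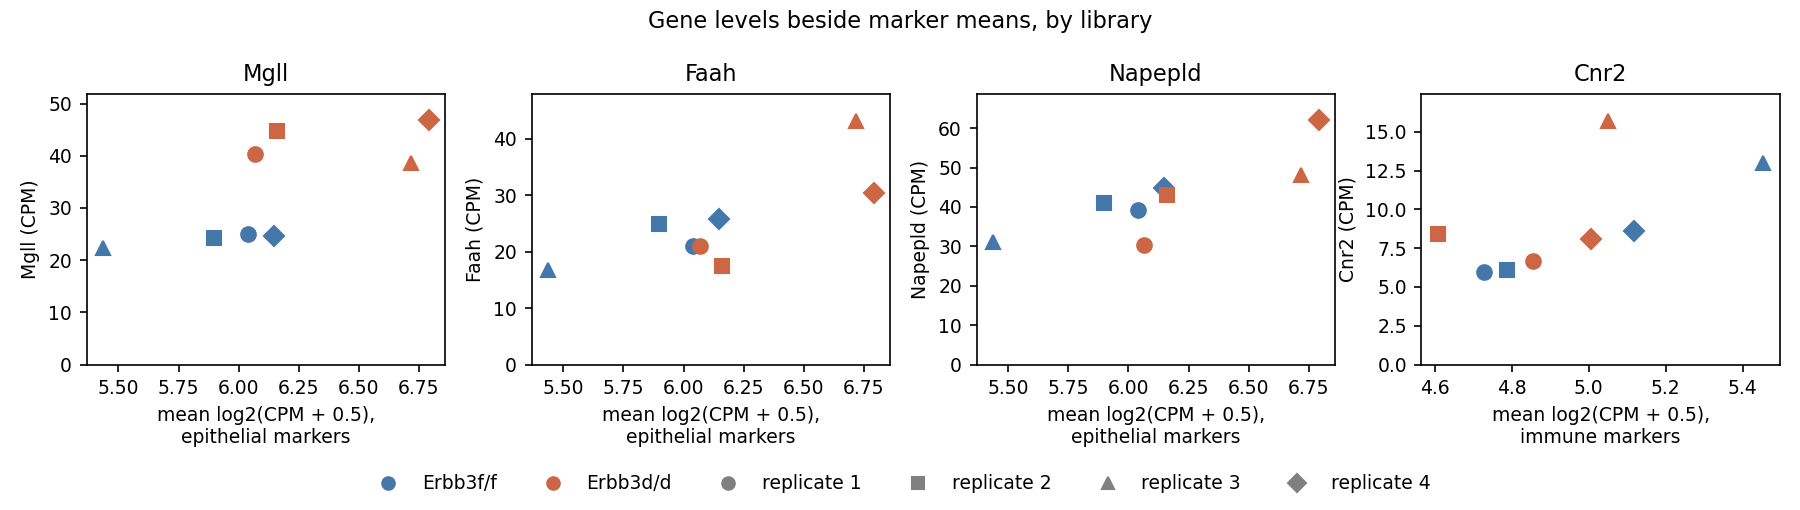
Level of Mgll, Faah and Napepld (CPM) against the mean log2(CPM + 0.5) of 15 epithelial markers, and of Cnr2 against that of 12 immune markers, with 1 point per library, colour for genotype and shape for replicate. Faah and Napepld are highest in Erbb3d/d replicates 3 and 4, which have the highest epithelial means (6.72 and 6.79), and the 4 Erbb3d/d points of Mgll lie above 38 CPM at epithelial means of 6.07 to 6.79.

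The receptors were the least abundant members. Cnr1, the receptor best known from neurons, lies on chromosome 4 at 33924593 to 33948831. It had 4, 11, 15 and 13 reads in Erbb3f/f and 9, 15, 17 and 29 reads in Erbb3d/d, or 0.390 to 1.47 CPM and 0.884 to 2.54 CPM. The ranges overlapped, and with so few reads the log2 fold change was 0.64 with a wide error (SE 0.50). It was 0.34 without Erbb3d/d replicate 4, 0.38 without Erbb3f/f replicate 1, 0.31 with the epithelial mean as a covariate and 1.20 with the smooth muscle mean.

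Cnr2, the receptor found mainly on immune cells, lies on chromosome 4 at 135895394 to 135920207. It had 5.94, 6.07, 12.96 and 8.59 CPM in Erbb3f/f and 6.68, 8.40, 15.7 and 8.07 CPM in Erbb3d/d. In each genotype replicate 3 was the highest, and the other 6 libraries lay between 5.94 and 8.59 CPM. The log2 fold change was 0.21 (SE 0.33), was -0.12 without Erbb3d/d replicate 3, 0.51 without Erbb3f/f replicate 3, -0.16 without Erbb3d/d replicates 3 and 4, and 1.07 with the smooth muscle mean as a covariate. The immune marker mean was also highest in replicate 3 of each genotype, at 5.45 against 4.73 to 5.12 in the other Erbb3f/f libraries and at 5.05 against 4.61 to 5.01 in the other Erbb3d/d libraries. The value of 5.01 was that of Erbb3d/d replicate 4, where Cnr2 had 8.07 CPM. By summed CPM the immune markers were highest in Erbb3d/d replicate 1, at 1774 against 1736 in Erbb3d/d replicate 3. The mesothelial marker mean was highest in replicate 3 of each genotype as well, at 4.82 in Erbb3f/f and 4.52 in Erbb3d/d. The part of immune cell RNA in the Cnr2 level was not tested.

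**Figure D3:**
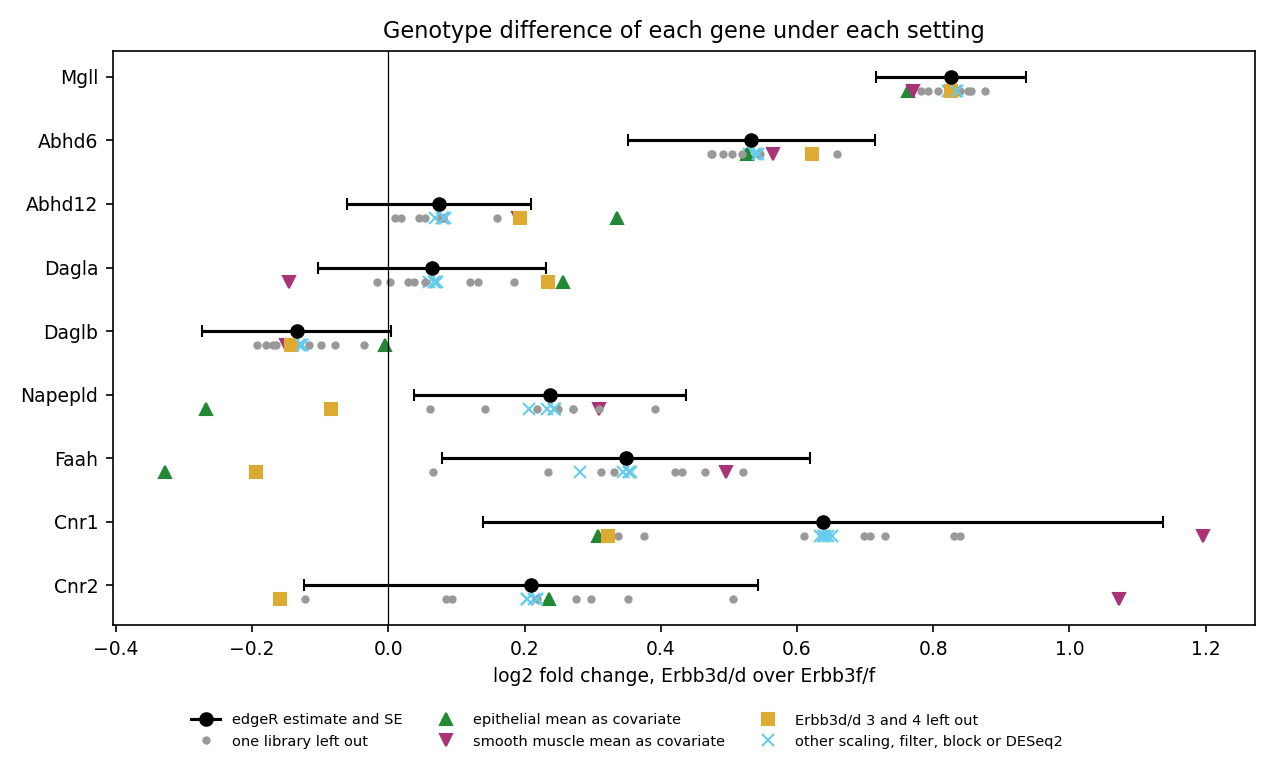
Fitted log2 fold change (Erbb3d/d over Erbb3f/f, horizontal axis) of each gene, with the black point and bar giving edgeR's estimate and SE and the small symbols the same value under 16 other settings. Mgll (0.76 to 0.88) and Abhd6 (0.47 to 0.66) stay above 0 throughout, and Faah and Napepld fall below 0 with the epithelial mean as a covariate and with Erbb3d/d replicates 3 and 4 left out. Mgll was chosen from this contrast and all settings use the same libraries, so its range is a description.

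The levels of the genes were then compared with each other, with both genotypes pooled. Pairs with Mgll still carry the genotype difference for which it was chosen. Counts were divided by the length of merged exons, and neighbours in the order were compared within the 8 libraries by a two-sided exact sign-flip permutation test, adjusted over 8 pairs (the smallest unadjusted p is 0.0078). Abhd12 was highest at 22.2 ± 3.01 CPM per kilobase (SD, n = 8), followed by Napepld at 10.7 ± 2.54, Mgll at 6.57 ± 2.02 and Abhd6 at 5.64 ± 1.35. Faah, Dagla and Daglb followed at 3.20 ± 1.10, 2.86 ± 0.403 and 2.82 ± 0.361 CPM per kilobase, then Cnr2 at 2.27 ± 0.875 and Cnr1 at 0.208 ± 0.0983.

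The exact test separated 4 of the 8 neighbouring pairs. Abhd12 was above Napepld in 8 of 8 libraries (log2 difference 1.07, SD 0.49, adjusted p = 0.0208, exact permutation test). Napepld was above Mgll in 7 of 8 libraries (0.74, SD 0.43, adjusted p = 0.0312, exact permutation test). Their means per kilobase were 9.87 and 4.73 CPM in Erbb3f/f, and 11.6 and 8.40 CPM in Erbb3d/d. Mgll has 5077 bp of merged exon but 3991 bp in its longest transcript, against 3956 and 3954 bp for Napepld. By longest transcript the means over 8 libraries were closer, at 10.7 and 8.35 CPM per kilobase. The p-value of this step does not cover that choice of length. Abhd6 was above Faah in 8 of 8 libraries (0.85, SD 0.46, adjusted p = 0.0208, exact permutation test). The step from Abhd6 to Faah also depends on the length used. Faah has 7834 bp of merged exon but 3827 bp in its longest coding transcript, against 2365 and 2226 bp for Abhd6. A fixed length shifts every library alike, so the p-value does not cover that choice, and the order by coding length was not tested. Cnr2 was above Cnr1 in 8 of 8 libraries by the widest step of the order (3.54, SD 0.76, adjusted p = 0.0208, exact permutation test).

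The other 4 steps did not pass 0.05. Mgll was above Abhd6 in 7 of 8 libraries (log2 difference 0.20, SD 0.30, adjusted p = 0.125, exact permutation test). Their means per kilobase were 4.73 and 4.61 CPM in Erbb3f/f, and 8.40 and 6.66 CPM in Erbb3d/d. Faah, Dagla and Daglb could not be put in order, with differences of 0.11 (SD 0.56) and 0.02 (SD 0.28) between neighbours. Daglb was above Cnr2 in 7 of 8 libraries (0.39, SD 0.53, adjusted p = 0.125, exact permutation test). With the longest transcript in place of merged exons, Daglb moved to the fifth place, at 5.54 CPM per kilobase, and the order of the others was the same.

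**Figure D4:**
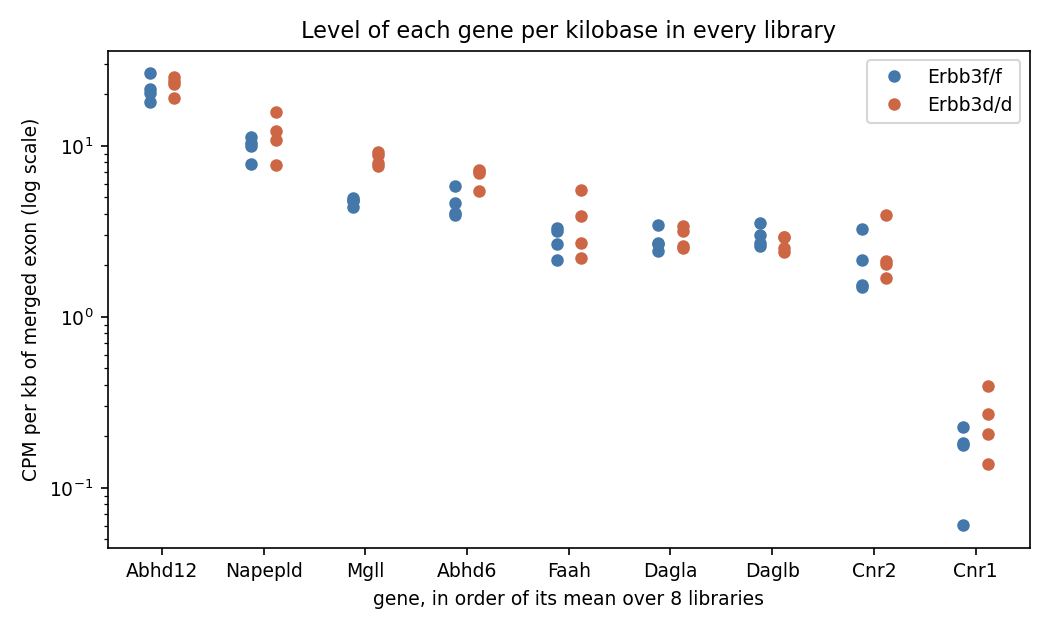
Level of each gene in CPM per kilobase of merged exon (log axis) in the 4 Erbb3f/f (blue) and 4 Erbb3d/d (orange) libraries, in order of the mean over 8 libraries. Abhd12 is highest (22.2) and Cnr1 lowest (0.208), with Faah, Dagla and Daglb close together near 3.

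Genes with a pattern like that of Mgll were sought over all 14597 other genes tested, by the root mean square difference of log2(CPM + 0.5) after each gene was centred on its mean over the 8 libraries. The 5 nearest were 2610019F03Rik (0.114), Crb3 (0.127), Cd300lg (0.162), Jag1 (0.174) and Sgms1 (0.182), where the median gene was at 0.479. Crb3 encodes a cell polarity protein of epithelia, Jag1 a Notch ligand and Sgms1 a sphingomyelin synthase. Crb3 had 6.70 to 7.80 CPM in Erbb3f/f and 9.93 to 14.0 CPM in Erbb3d/d. Jag1 had 27.6 to 35.1 CPM in Erbb3f/f and 41.6 to 57.6 CPM in Erbb3d/d. All 5 lay wholly higher in Erbb3d/d, which follows from their likeness to Mgll and is no separate result. Of the endocannabinoid genes Abhd6 was nearest to Mgll, at 0.274, and Cnr2 was farthest, at 0.585.

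The other genes of the pathway were read out in 7 lists of 87 genes, of which 74 were tested. In edgeR with all libraries 0 of the 74 passed an adjusted p of 0.05. An unadjusted p under 0.05 was found for 9 of the 74, where 11.6% of all genes tested had one. DESeq2 called 2 of the 74, where it called 1.79% of all genes tested. Nothing is read from these counts. In 5 of them (6.76%) the genotypes did not overlap, against 5.04% of all genes tested. All 5 were higher in Erbb3d/d, where 2.56% of all genes tested were wholly higher. The median log2 fold change of the 74 was 0.03, with 40 above 0, where 48% of all genes tested were above 0. The counts above 0 in the lists below stand against the same 48%. For the genes named from these lists, the log2 fold change is also given under 3 other settings, always in this order: with the epithelial mean as a covariate, with the smooth muscle mean as a covariate, and without Erbb3d/d replicates 3 and 4.

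Neutral lipid turnover, the list nearest to the other role of Mgll, had 20 of 24 genes tested, 15 of them with a log2 fold change above 0, and a median of 0.16. Plin4, which codes for a lipid droplet coat protein, had 5.26, 6.91, 3.85 and 2.37 CPM in Erbb3f/f and 23.4, 9.68, 7.96 and 10.3 CPM in Erbb3d/d. The genotypes were wholly apart, and its log2 fold change was 1.47 (SE 0.41, adjusted p = 0.281 in edgeR, 0.0268 in DESeq2). The smooth muscle markers were highest in the same library as Plin4, Erbb3d/d replicate 1, with a mean log2(CPM + 0.5) of 8.49 against 6.48 to 7.95 in the other 7 libraries. Under the 3 settings the log2 fold change of Plin4 was 1.96, 0.46 and 1.85. Mogat2, which adds an acyl chain to monoglyceride, had 2.05 to 6.78 CPM in Erbb3f/f and 6.999 to 13.5 CPM in Erbb3d/d, with a log2 fold change of 1.32 (SE 0.39, adjusted p = 0.293 in edgeR), and 0.60, 1.46 and 0.88 under the 3 settings. Pnpla2, which encodes the first lipase of triglyceride breakdown, had 34.8 to 41.5 CPM and 41.1 to 51.9 CPM, with overlap between the genotypes (log2 fold change 0.31, SE 0.11, adjusted p = 0.337 in edgeR), and its value was 0.24, 0.27 and 0.22 under the 3 settings. Adipoq, an adipocyte gene named after its values were seen, had 0 reads in 6 libraries and 4 and 2 reads in Erbb3d/d replicates 3 and 4, and 0 of the 10 adipocyte markers passed the filter on low counts.

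Along the route to diacylglycerol, the substrate of Dagla and Daglb, 7 of 12 genes were above 0 and the median log2 fold change was 0.01. Plcd3, a phospholipase C, had 20.5, 14.7, 14.6 and 19.6 CPM in Erbb3f/f and 25.4, 24.5, 34.9 and 27.6 CPM in Erbb3d/d. The genotypes were wholly apart, with a log2 fold change of 0.70 (SE 0.17, adjusted p = 0.236 in edgeR, 0.0194 in DESeq2), and 0.40, 0.75 and 0.53 under the 3 settings. Ddhd1 and Ddhd2, phospholipases, had log2 fold changes of 0.20 and -0.18, with adjusted p-values of 0.483 and 0.518 in edgeR. Under the 3 settings Ddhd1 had 0.37, 0.28 and 0.30, and Ddhd2 had -0.06, -0.22 and -0.06.

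Among enzymes of N-acylethanolamines, the lipid class of anandamide, 9 of 12 genes were tested, 7 of them above 0, with a median log2 fold change of 0.07. Abhd4, which takes part in a route to anandamide other than Napepld, had 85.2, 80.8, 80.8 and 72.0 CPM in Erbb3f/f and 112, 86.3, 92.3 and 124 CPM in Erbb3d/d. The genotypes were apart, with the nearest libraries at 85.2 and 86.3 CPM (log2 fold change 0.38, SE 0.12, adjusted p = 0.311 in edgeR), and its value was 0.34, 0.19 and 0.32 under the 3 settings. Gdpd1, a lysophospholipase D, and Asah1, acid ceramidase, had log2 fold changes of 0.58 and 0.24, with adjusted p-values of 0.296 and 0.412 in edgeR. Under the 3 settings Gdpd1 had 0.49, 0.67 and 0.38, and Asah1 had 0.14, 0.32 and 0.10.

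Of the oxygenases that accept these lipids, 5 of 7 were above 0, with a median log2 fold change of 0.05. Alox15, a lipoxygenase, had 72.5, 50.6, 51.1 and 96.7 CPM in Erbb3f/f and 96.2, 48.3, 171 and 198 CPM in Erbb3d/d. As for Faah, Erbb3d/d replicates 3 and 4, which hold the highest epithelial marker means, were above all other libraries (log2 fold change 0.93, SE 0.41, adjusted p = 0.432 in edgeR). The value of Alox15 was -0.06, 1.002 and 0.10 under the 3 settings. Cyp2j9 and Cyp2j6, cytochrome P450 epoxygenases with close relatives that could share reads, had log2 fold changes of 0.47 and -0.11. Under the 3 settings Cyp2j9 had 0.60, -0.62 and 0.43, and Cyp2j6 had -0.19, -0.14 and -0.18.

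Other receptors for these lipids and partners of Cnr1 had 9 of 11 genes tested, 4 above 0 and a median log2 fold change of -0.04. Ppara, a nuclear receptor for fatty acid derivatives, had 10.3 to 15.7 CPM in Erbb3f/f and 4.56 to 13.9 CPM in Erbb3d/d, with overlap (log2 fold change -0.63, SE 0.30, adjusted p = 0.454 in edgeR), and its value was -0.26, -0.24 and -0.36 under the 3 settings. Ppard had a log2 fold change of -0.19, and -0.05, -0.21 and -0.06 under the 3 settings. Gpr55, a receptor for lysophosphatidylinositol, had 13.2 and 8.69 CPM in Erbb3d/d replicates 3 and 4 and 1.75 to 5.74 CPM in the other 6 libraries (log2 fold change 0.82, SE 0.56). Under the 3 settings the value of Gpr55 was 0.01, 1.66 and -0.60. Of the lipid carriers 2 of 6 genes were tested, Fabp5 with a log2 fold change of 0.34 and Scp2 with -0.05. Fabp5 had 0.72, 0.61 and 0.34 under the 3 settings, and Scp2 had -0.11, -0.19 and -0.05.

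The last list held 15 further genes with the alpha/beta-hydrolase domain of Mgll and Abhd6, without those placed in another list for their function. Of these 15 genes, all tested, 1 had a log2 fold change above 0, where 48% of all genes tested did, and the median was -0.13 against -0.01 over all genes tested. Some genes of the same family that stand in other lists or among the 9 were above 0, with 0.38 for Abhd4, 0.13 for Abhd5 and 0.07 for Abhd12, so the count does not describe the family as a whole. Fam108b (now Abhd17b), which encodes a protein depalmitoylase, was the 1 gene of the 15 above 0, with 45.5 to 49.6 CPM in Erbb3f/f and 49.8 to 57.4 CPM in Erbb3d/d (log2 fold change 0.21, SE 0.09, adjusted p = 0.417 in edgeR), and 0.12, 0.29 and 0.14 under the 3 settings. Abhd14a and Abhd2 had log2 fold changes of -0.35 and -0.18, with adjusted p-values of 0.541 and 0.631 in edgeR. Under the 3 settings Abhd14a had -0.09, -0.41 and -0.11, and Abhd2 had -0.25, 0.04 and -0.28.

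**Figure D5:**
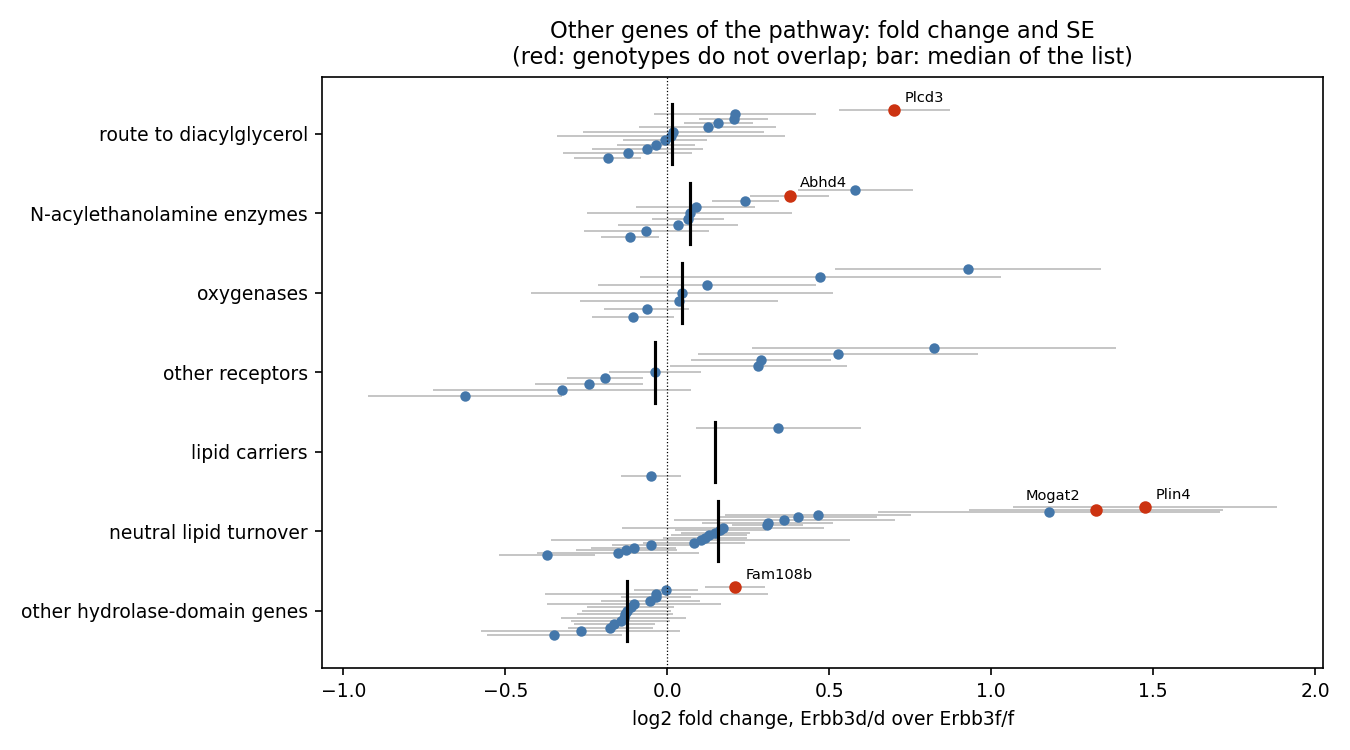
Fitted log2 fold change (Erbb3d/d over Erbb3f/f, horizontal axis) and SE of the 74 tested genes in 7 lists, with a black bar at the median of each list and red points for the 5 genes whose genotypes do not overlap. Medians lie between -0.13 for other hydrolase-domain genes and 0.16 for neutral lipid turnover.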

How the data were processed

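Polyadenylated RNA was sequenced in 8 libraries. The authors deposited raw counts per gene symbol, with no normalization. HISAT2, SAMtools, HTSeq and StringTie and the build GRCm38 (mm10) are named, without role or order, in the submitters' processing notes; versions, annotation and counting options are not given in the sources used here. The 5 closing lines that name no gene (70.9% to 73.0% of entries) were left out.

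Groups and replicate numbers came from the sample titles. In R 4.3.3, edgeR 4.0.16 kept 14598 genes (filterByExpr), scaled libraries by TMM and applied the quasi-likelihood test with Benjamini-Hochberg adjustment at 0.05. DESeq2 1.42.0 was run on the same genes as an alternative, beside other scalings, no filter, a replicate block, marker means as covariates and left-out libraries. The code was tested on simulated counts. Positions and lengths came from GENCODE vM21 (GRCm38), and older symbols were matched through RefSeq synonyms.

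The 9 genes and all lists were chosen with earlier results of these data known. Besides them, the text names up to 3 genes per pathway list with a mean of at least 1 CPM and the smallest p, the 2 most abundant markers of lists it describes, the 5 genes nearest to Mgll, and genes whose naming is explained in place.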

Additional observations from a re-analysis of the deposited data

Results flagged for a closer look

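Among 48 groups of 4 libraries examined (the 9 genes and 15 list means in each genotype), 1 had a library far from the others, where 2.4 would be expected at 1 in 20. The list of other receptors for these lipids and Cnr1 partners stood at 2.82 in Erbb3f/f replicate 1, as a mean of log2(CPM + 0.5) over its genes. The next lowest Erbb3f/f value was 3.01.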

How the results depend on the processing

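Genes called across the genome numbered 262 with DESeq2 and 52 with the replicate number as a block, against 0 in the main analysis; leaving out one library gave 0 to 259, the highest without Erbb3d/d replicate 2. DESeq2 called 2 of the 74 tested pathway genes, Plcd3 and Plin4, where it called 1.79% of all genes tested. For the pathway genes the replicate block and every left-out library gave 0. The count of endocannabinoid genes that did not overlap was 1 to 2 with one library left out. In those settings 6.42% to 16.2% of all genes tested did not overlap, against 5.04% with all libraries. The count was 2 with Erbb3d/d replicates 3 and 4 left out, a choice made after seeing the data. The share over all genes is not given for that setting, so nothing is read from the count. The log2 fold change of Mgll was 0.78 to 0.88 with one library left out and 0.82 with the replicate block, a description because Mgll was chosen from this contrast. Of 144 recomputed fold changes of the 9 genes, 7 moved by more than the SD within genotypes: 6 with a marker covariate and that of Faah with Erbb3d/d replicates 3 and 4 left out; the cause was not tested. The count of separated neighbours in the order was 3 to 4 with one library left out. Same-numbered libraries deviated together with correlations of 0.0998 to 0.241 across genes, against -0.307 to 0.318 for libraries of different numbers. Of the libraries, 3 of 4 Erbb3f/f and 2 of 4 Erbb3d/d correlated best with their own number. The labels do not say that the numbers pair samples, so the main analysis used no block. Whether same-numbered libraries share a batch or a pairing was not tested. Depth limits Cnr1 most, with 4 to 29 reads per library.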
